A study of Mus musculus with 74 samples.

Results

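Replication-coupled histone genes encode the bulk of the core and linker histones made while DNA is copied, and the set described here comprised every gene of the RNA tables whose symbol begins with Hist1h, Hist2h, Hist3h or Hist4h and that had at least 1 read in any library. This rule took 60 of 24851 genes. By histone class the set held 6 H1, 16 H2A, 16 H2B, 10 H3 and 12 H4 genes. The mouse genome annotation (RefSeq, GRCm38.p6) lists 57 of them as protein coding and 3 as pseudogenes, Hist1h2aj, Hist1h2al and Hist3h2bb-ps. It places 50 on chromosome 13, 6 on chromosome 3, 3 on chromosome 11 and 1 on chromosome 6. The same annotation names 70 genes of the family, and the other 10 were not analysed here.

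The values are RNA-seq read counts of macrophage-like cells, with 1 normalised scale for all 18 libraries used. RAW264.7, the wild-type mouse macrophage-like cell line, and the lines numbered 264 and 3205 were each sequenced unstimulated (0 min) and after 60 and 120 min of lipopolysaccharide (LPS, a bacterial cell wall component that activates macrophages), with 2 libraries in each of the 9 groups. The series' design text describes wild-type cells, hypomorphic lines and lines in which CRISPR disrupted both H3f3a and H3f3b, the pair of genes for the replication-independent variant H3.3, but the labels do not say which of these 264 and 3205 are, nor whether each is 1 clone. They are called the altered lines here. The LPS dose of the cell lines was not given in the sources used here, and nothing says that the 2 libraries of a group came from separate cultures, so the p-values reflect no more than how far apart these libraries lie. The tissue label of these samples reads bone marrow derived macrophage whereas the source name reads RAW264.7, and they are called by the source name here.

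As background, replication-coupled histone genes sit in clusters, lack introns and are transcribed mainly in S phase, when new nucleosomes are assembled behind the replication fork. H2A, H2B, H3 and H4 form the nucleosome core, and H1 binds the linker DNA between nucleosomes. Their mRNAs end in a conserved stem-loop bound by SLBP rather than in a poly(A) tail, but some members, among them Hist1h1c, Hist1h2bc and Hist2h2be, are also known to be made as polyadenylated transcripts. Whether these libraries were selected for poly(A), how reads that map to several near-identical copies were counted and whether counting used strand were not given in the sources used here. Values of single genes within a class can therefore share reads, and levels of the class as a whole depend on how the RNA was captured.

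The sequences upstream of Hist1h1c, Hist2h2be, Hist1h2bc and Hist1h4i are shown first, because these genes are among those with the most H1, H2B and H4 reads (they were picked after their values were seen). They are printed as RefSeq GRCm38.p6 gives them, 5′ to 3′ and in lower case, with the motifs that were searched in capitals. One motif was CCAAT, the usual CCAAT box. Another was TATAAA, the core of a TATA box. The octamer ATTTGCAT is known from H2B promoters. The box AAACACA is known from H1 promoters. Each was sought on both strands. The stretch before Hist1h1c (chr13:23738557-23738806, plus strand) ends at the base before the gene and holds 1 CCAAT and 1 AAACACA. Hist2h2ac and Hist2h2be are divergent neighbours, and the 191 bases between them (chr3:96220881-96221071, printed on the minus strand) hold 3 CCAAT and 1 TATAAA. Hist1h2ac and Hist1h2bc are also divergent, and their 239 shared bases (chr13:23683960-23684198, printed on the minus strand) hold 3 CCAAT, 1 TATAAA and 1 octamer. Both shared stretches are printed in the direction of the H2A gene, and the TATAAA of each lies at the end next to the H2A gene. The stretch before Hist1h4i (chr13:22041363-22041612, minus strand) holds 1 TATAAA and 0 CCAAT.
Hist1h1c: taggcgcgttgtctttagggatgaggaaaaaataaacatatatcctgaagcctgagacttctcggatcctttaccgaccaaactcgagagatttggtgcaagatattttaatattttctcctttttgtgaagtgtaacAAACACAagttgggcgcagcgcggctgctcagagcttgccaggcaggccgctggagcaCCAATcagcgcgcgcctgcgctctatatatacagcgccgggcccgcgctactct
Hist2h2ac and Hist2h2be: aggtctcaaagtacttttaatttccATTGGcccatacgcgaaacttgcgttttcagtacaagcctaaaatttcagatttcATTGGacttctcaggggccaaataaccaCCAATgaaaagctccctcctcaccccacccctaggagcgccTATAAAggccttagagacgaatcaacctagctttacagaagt
Hist1h2ac and Hist1h2bc: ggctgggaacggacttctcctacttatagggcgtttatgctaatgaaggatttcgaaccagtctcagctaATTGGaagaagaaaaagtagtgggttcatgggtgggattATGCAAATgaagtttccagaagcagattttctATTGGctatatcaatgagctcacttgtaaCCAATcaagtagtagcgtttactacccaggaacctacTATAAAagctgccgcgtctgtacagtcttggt
Hist1h4i: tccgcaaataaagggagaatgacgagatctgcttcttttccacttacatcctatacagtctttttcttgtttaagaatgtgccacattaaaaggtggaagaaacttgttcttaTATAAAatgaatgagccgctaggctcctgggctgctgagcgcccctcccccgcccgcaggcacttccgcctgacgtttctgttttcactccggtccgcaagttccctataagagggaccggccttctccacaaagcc

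The difference between the H4 sequence and the others held over the classes. RefSeq promoter windows from 250 bases before to 50 after the gene start were found for 52 of the 60 members, giving 53 windows. CCAAT was present in 6 of 6 H1, 14 of 14 H2A, 14 of 14 H2B and 8 of 8 H3 windows but in 3 of 11 H4 windows, against 37.4% of all 32851 promoter windows. The octamer was found in 7 of 14 H2A and 6 of 14 H2B windows and in 0 of the H1, H3 and H4 windows, against 1.74% of all windows, and divergent H2A and H2B genes share much of that sequence. AAACACA was found in 5 of 6 H1 windows against 7.18% of all, and TATAAA in 32 of the 53 member windows against 13.6% of all. A match describes letters in a window and says nothing about a factor.

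The libraries held 13084927 to 53860392 reads in genes. The H3.3 genes served as the check of the altered lines. H3f3a had a normalised read count of 2055 to 3109 over the 6 RAW264.7 libraries, 172 to 236 in the 264 libraries and 37.5 to 76.2 in the 3205 libraries. At 0 min its log2 difference from RAW264.7 was -3.53 ± 0.22 (SE) in the 264 line (limma, Benjamini-Hochberg adjusted p = 6.07e-06) and -5.12 ± 0.22 in the 3205 line (adjusted p = 8.85e-07). H3f3b, the other H3.3 gene, spanned 13623 to 34155 in RAW264.7, 5642 to 17765 in the 264 line and 7177 to 13284 in the 3205 line. Macrophage markers were abundant in every library, although their sum (11 of 12 listed markers measured, 0 of them at 0) was lower in the altered lines, at 166370 to 262930 (264) and 212020 to 295810 (3205) against 393230 to 516920 (RAW264.7). Lyz2, the gene of a macrophage lysozyme, made up much of that difference, with 202010 to 294100 in RAW264.7, 38736 to 66339 in the 264 line and 71652 to 120890 in the 3205 line. Without it the sums overlapped, at 168570 to 263280 in RAW264.7, 127630 to 215270 in the 264 line and 127370 to 174920 in the 3205 line. At 0 min 4 of these markers were called lower in the 264 line (Cd14, Lyz2, Spi1 and Tyrobp), where 5.57% of all genes were. The 3205 line had 3 called lower (Cd14, Fcer1g and Lyz2), where 5.89% of all genes were. Other macrophage markers went the other way. Fcgr1 was called higher in both altered lines at every time and Mertk in the 3205 line at every time. At 0 min 7.61% (264) and 8.42% (3205) of all genes were called higher. Markers of other cell types were low. The sum of 4 of 5 B cell markers was 1.48 to 5.44 in RAW264.7, 1.82 to 6.11 in the 264 line and 22.2 to 152 in the 3205 line. Cd79b, a B cell marker, was called higher in the 3205 line at every time. The sums of 2 of 6 T and NK cell, 5 of 5 neutrophil and 4 of 5 fibroblast markers reached at most 11.1, 36.8 and 3.48 in any library, with 1, 3 and 2 of them at 0 in every RAW264.7 library. The neutrophil sum was 18.8 to 36.8 in the 3205 line, 4.55 to 11.2 in the 264 line and 0 to 10.4 in RAW264.7. Elane, a neutrophil marker, was called higher in the 3205 line at 60 and 120 min, in calls lost whichever library was left out. The part of the macrophage, B cell and neutrophil marker differences in the histone gene values was not tested.

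Most replication-coupled histone genes were detected at very low levels. The median of the 60 mean values over 18 libraries was 3.55 normalised reads, against 396 for all genes tested. In all, 53 members had a mean under 10, 11 of these under 1, and only 5 reached 20. The number of members with any read ran from 33 in the shallowest library (RAW264.7 at 60 min, replicate 2, 13084927 reads) to 55 in RAW264.7 at 0 min, replicate 1, and 17 members had a read in all 18 libraries. The members together drew 11082 reads, of which 52.1% fell on 3 genes and 64.6% on 5 genes.

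A single gene carried most of the reads of 3 classes, summed over the libraries. Hist1h1c, which encodes the linker histone H1.2 (chr13:23738807-23739531), averaged 245 normalised reads and took 84.9% of all H1 reads. Hist1h2af, an H2A gene (chr13:23533875-23534378), averaged 60.3 and took 54.1% of the H2A reads, and Hist1h4i, an H4 gene (chr13:22040960-22041362), averaged 47.6 and took 54.6% of the H4 reads. Among the H2B genes the leading member was Hist2h2be (chr3:96221072-96223738), with a mean of 51.7 and 38.0% of the reads, ahead of Hist1h2bc (chr13:23684199-23692480), with a mean of 35.2. Its share of the H2B reads ran from 14.6% to 54.5% over the libraries, and Hist1h2bc was above it in both RAW264.7 libraries at 120 min. No H3 gene led to that extent, since Hist1h3e (chr13:23561475-23562385), the most abundant, averaged 9.53 and took 23.8%.

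**Figure D1:**
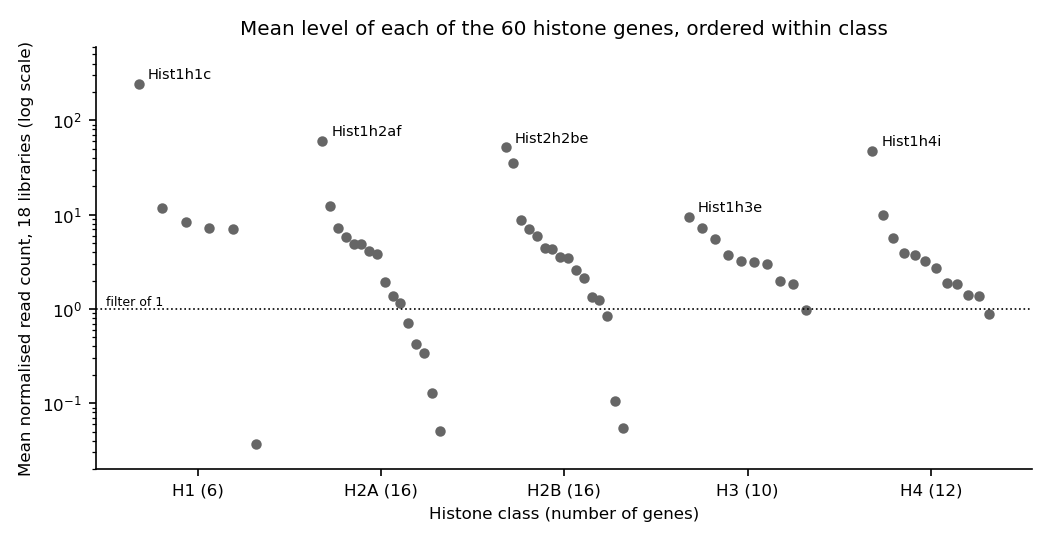
Mean normalised read count of each of the 60 genes over the 18 libraries on a log axis, by histone class, with 1 point per gene and the filter for testing at 1 drawn as a dotted line. Hist1h1c stands at 245, 4 other genes lie between 35.2 and 60.3, and most lie under 10.

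Levels between genes were compared per length. Over the 55 members whose annotated span is under 1000 bases, Hist1h1c reached 338 normalised reads per kilobase, Hist1h2af 120 and Hist1h4i 118. The next member in that order was Hist1h4d at 24.8 per kilobase, followed by Hist1h2ae at 22.1. The class medians per kilobase lay closer together than the leading genes did, at 9.98 for H1, 4.32 for H2A, 6.26 for H2B, 6.32 for H3 and 7.40 for H4. Hist2h2be and Hist1h2bc are not in this order because their annotated spans are longer than the usual short histone transcript.

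Divergent neighbours that share an intergenic promoter differed in level to very different extents. In 11 pairs of an H2A and an H2B gene that are 163 to 248 bases apart, the more abundant gene exceeded its partner by a median of 2.65-fold in mean normalised reads, with a range of 1.09 to 133, and these ratios are not per length. The 133-fold ratio is that of Hist3h2a to the pseudogene Hist3h2bb-ps, which had 1 read in all, and the next is 49.2-fold. Hist1h2bm exceeded another pseudogene, Hist1h2aj, 13.1-fold. Hist1h2bc averaged 35.2 against 0.715 for Hist1h2ac, and Hist2h2be 51.7 against 4.91 for Hist2h2ac, across the sequences printed above. In these pairs and those with a pseudogene, which have the largest ratios, only 1 gene had a promoter window. Its partner was taken to lie on the opposite strand. In contrast, Hist1h2ae at 12.3 and Hist1h2bg at 7.02 lay closer together.

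In unstimulated cells Hist1h1c was called lower than in RAW264.7 in both altered lines, and it was the only member called in the 264 line. In the 3205 line Hist2h2be, Hist1h2bc, Hist3h2a, Hist1h3g and Hist1h4f were called lower too. The tests used limma on log2(value + 1), on genes with a mean of at least 1 in a table, with 49 members tested in the table of 0 and 60 min and 51 in that of 0 and 120 min. A call is an adjusted p below 0.05, adjusted over all genes tested, and a log2 difference on this scale understates the change of low genes. The comparisons of both lines share the RAW264.7 libraries and are therefore given side by side. In bulk RNA, fewer cells that express a gene and less RNA per cell cannot be told apart. Of the 49 members at 0 min, the 264 line had 1 called lower (5.57% of all genes were called lower) and 0 called higher (7.61%). The 3205 line had 6 called lower (5.89% of all genes), which is 12.2% of the members, and 0 called higher (8.42%).

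After LPS the counts stayed small. At 60 min the 264 line had 3 members called higher (8.46% of all genes) and 1 lower (6.8%), and the 3205 line 1 higher (8.95%) and 5 lower (6.46%). At 120 min the 264 line had 0 of 51 called by limma in either direction (7.33% of all genes higher, 6.13% lower), with 4 members at an unadjusted p under 0.05 and 1 called lower by DESeq2 (7.93% of the genes with an adjusted p there). The 3205 line had 0 called higher (7.94%) and 5 called lower (5.99%), or 9.80% of the members. With replicate number as a block in the model, the 264 line had 2 called lower at 0 min (10.6% of all genes), 3 lower (12.6%) and 5 higher (14.3%) at 60 min, and 1 lower (11.8%) and 1 higher (13.5%) at 120 min, and the 3205 line had 8 lower at 0 min (12.1%). The calls without the block, with those of the LPS comparisons below, came to 24, from 11 genes, and 4 of the 24 held whichever library was left out. No gene was called in the same direction in both lines at all 3 times without the block. With it Hist1h1c was called lower in both at all 3 times, with adjusted p of 0.0018, 0.0067 and 0.042 in the 264 line and 0.0020, 0.0026 and 0.0073 in the 3205 line. Where the text below names libraries without which a call was lost, the p given is that of the refit without the library. Such a refit leaves 1 library in a group, so a lost call does not show that it rested on that library. With the replicate block and all libraries, all 24 calls were kept. More than 3 calls of a direction in 1 comparison are all named, which was decided after their values were seen.

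**Figure D2:**
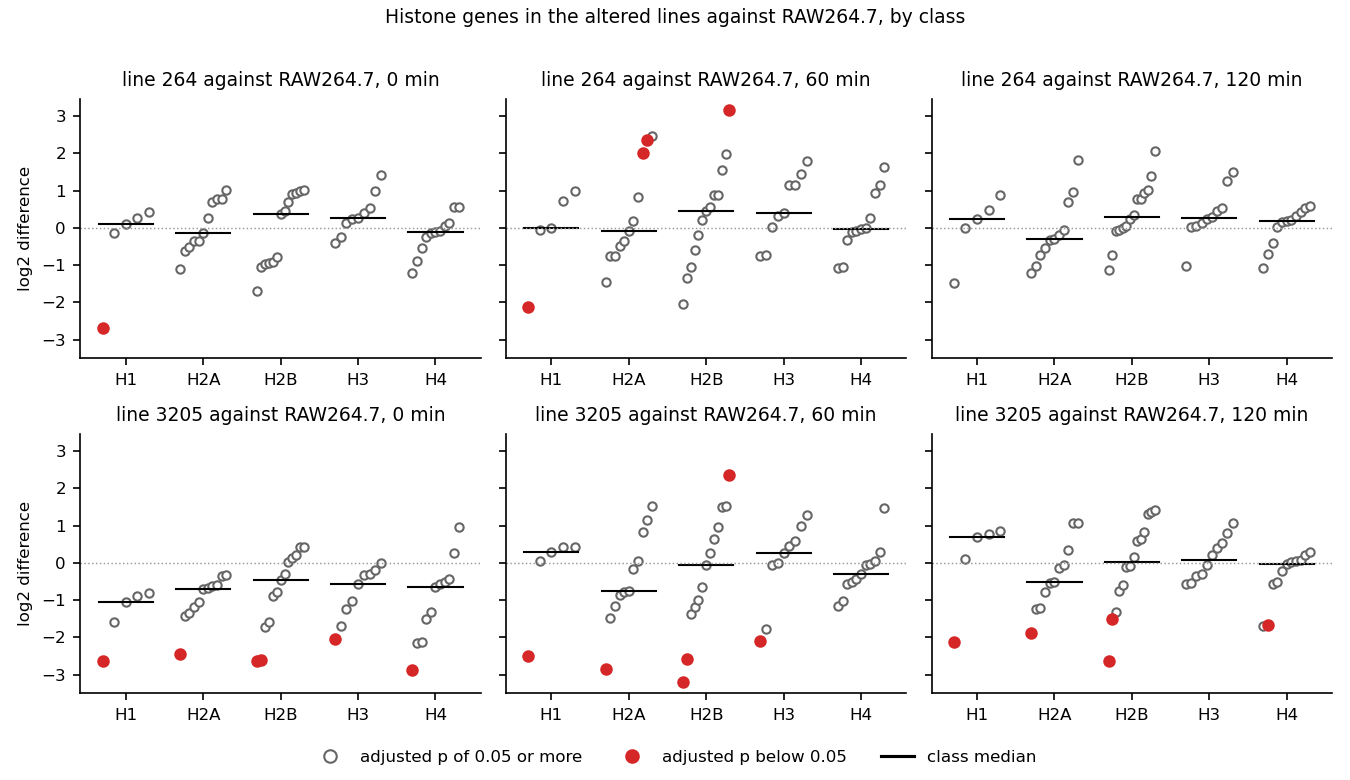
Log2 difference of each tested histone gene between an altered line and RAW264.7 at the same time (limma on log2(value + 1)), by class, in 6 panels of 1 line and 1 time, with red points at an adjusted p below 0.05 and a bar at the class median. In the 3205 line at 0 min, 42 of 49 points lie below 0, whereas in the 264 line at 0 min 23 of 49 do.

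Hist1h1c (RefSeq name H1f2) was the replication-coupled histone gene with the largest difference in normalised reads between the lines. Its normalised counts at 0 min were 528 and 613 in RAW264.7, 81.9 and 92.3 in the 264 line and 151 and 53.8 in the 3205 line. After 60 min RAW264.7 had 373 and 694, line 264 had 104 and 131, and line 3205 had 124 and 64.2. After 120 min RAW264.7 had 328 and 563, line 264 had 139 and 169, and line 3205 had 143 and 66.7. All 6 libraries of either altered line lay below all 6 of RAW264.7.

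The log2 difference of Hist1h1c in the 264 line was -2.70 ± 0.49 (SE) at 0 min (limma, adjusted p = 0.0048), a 6.52-fold lower pooled level with a 95% exact counting interval of 5.59 to 7.63. That interval covers counting error only. At 60 min the log2 difference was -2.12 ± 0.49 (adjusted p = 0.016), a call lost without RAW264.7 replicate 2 at 60 min (adjusted p = 0.129), 264 replicate 1 (adjusted p = 0.097) or 264 replicate 2 (adjusted p = 0.0565). At 120 min the difference of -1.48 ± 0.49 did not pass the test (adjusted p = 0.083), but it did with replicate number as a block (adjusted p = 0.042). Line 3205 gave -2.64 ± 0.49 at 0 min (adjusted p = 0.0054), 5.16-fold (4.46 to 5.997). The differences at 60 and 120 min were -2.50 ± 0.49 (adjusted p = 0.0069) and -2.13 ± 0.49 (adjusted p = 0.0186). The call at 60 min was lost without RAW264.7 replicate 2 at that time (adjusted p = 0.0661) or 3205 replicate 2 (adjusted p = 0.064), and that at 120 min without RAW264.7 replicate 2 (adjusted p = 0.127) or 3205 replicate 2 (adjusted p = 0.136). Both 0 min calls held whichever library was left out, with adjusted p of 0.0023 to 0.046.

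The other H1 genes were far less abundant and none was called in any comparison. Hist1h1e (H1.4) had 14.2 and 17.4 normalised reads in RAW264.7 at 0 min, 15.5 and 23.1 in the 264 line and 5.99 and 10.8 in the 3205 line. Hist1h1b (H1.5) had 11.98 and 11.6 in RAW264.7, 15.5 and 10.3 in the 264 line, and 4.28 and 2.39 in the 3205 line. At 0 min RAW264.7 and the 264 line overlapped in both genes, whereas the 3205 libraries lay below both others. After 120 min of LPS Hist1h1e read 10.7 and 3.79 in RAW264.7, 17.7 and 4.89 in the 264 line and 3.87 and 28.5 in the 3205 line, so the libraries of all lines overlapped.

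Hist2h2be and Hist1h2bc, both H2B genes, differed most in the 3205 line. Hist2h2be had 202.5 and 115 normalised reads in RAW264.7 at 0 min, 110.1 and 57.3 in the 264 line and 33.4 and 16.7 in the 3205 line. After 60 min RAW264.7 had 75.7 and 84.5, line 264 had 38.2 and 38.0, and line 3205 had 15.9 and 9.97. After 120 min RAW264.7 had 41.3 and 15.15, line 264 had 25.5 and 23.2, and line 3205 had 14.2 and 14.6. The order at 0 and 60 min was RAW264.7, then 264, then 3205 with no overlap, and at 120 min RAW264.7 and the 264 line overlapped and 1 RAW264.7 library came down to the level of the 3205 libraries.

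The log2 difference of Hist2h2be in the 3205 line was -2.63 ± 0.47 at 0 min (limma, adjusted p = 0.0044), 6.05-fold lower (4.50 to 8.27), a call lost without RAW264.7 replicate 1 (adjusted p = 0.0532). After 60 min it was -2.57 ± 0.47 (adjusted p = 0.0049), 6.14-fold lower (4.16 to 9.20), and held whichever library was left out. At 120 min it was -0.76 ± 0.56 and did not pass the test (adjusted p = 0.46). The differences in the 264 line were -0.93 ± 0.47 (adjusted p = 0.27), -1.05 ± 0.47 (adjusted p = 0.18, or 0.043 with the replicate block) and -0.04 ± 0.56 (adjusted p = 0.99).

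Hist1h2bc had 100.2 and 49.8 normalised reads at 0 min in RAW264.7, 26.4 and 17.1 in the 264 line and 18.8 and 5.98 in the 3205 line. After 60 min RAW264.7 had 90.6 and 76.6, line 264 had 21.6 and 17.3, and line 3205 had 13.2 and 4.99. After 120 min RAW264.7 had 71.9 and 48.0, line 264 had 28.5 and 24.5, and line 3205 had 12.9 and 5.56. Every library of either altered line lay below every RAW264.7 library. The log2 difference in the 3205 line was -2.61 ± 0.61 at 0 min (limma, adjusted p = 0.019), a call lost without RAW264.7 replicate 1 (adjusted p = 0.149) or 3205 replicate 2 (adjusted p = 0.096). It was -3.19 ± 0.61 at 60 min (adjusted p = 0.0065), 9.52-fold lower (6.17 to 15.1), lost without 3205 replicate 2 (adjusted p = 0.0608). It was -2.65 ± 0.61 at 120 min (adjusted p = 0.0182), lost without RAW264.7 replicate 1 (adjusted p = 0.133), RAW264.7 replicate 2 (adjusted p = 0.0548) or 3205 replicate 2 (adjusted p = 0.132). For the 264 line the differences of -1.69 ± 0.61, -2.05 ± 0.61 and -1.13 ± 0.61 missed the threshold (adjusted p = 0.114, 0.0502 and 0.30), although the replicate block gave 0.010 at 0 min and 0.00295 at 60 min.

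Hist1h2bj was the H2B gene called higher in the altered lines and was called only at 60 min, when RAW264.7 had 0 reads of it. It had 5.44 and 4.63 normalised reads in RAW264.7 at 0 min, 0 in both libraries at 60 min, and 3.996 and 3.79 at 120 min. At the same times line 264 had 9.10 and 11.97, then 9.04 and 6.91, then 13.7 and 4.89. Line 3205 had 5.99 and 5.98, then 2.65 and 6.23, then 6.45 and 6.25. After 60 min there were 21 reads in the 264 line and 0 in RAW264.7, a level at least 2.84-fold higher against a floor of 3 reads over the group (limma, adjusted p = 0.0018), which held whichever library was left out. The 3205 line had 14 reads, at least 1.58-fold higher (adjusted p = 0.0092), a call lost without 3205 replicate 2 (adjusted p = 0.095) and not made by DESeq2 (adjusted p = 0.133). At the other times the gene was not called in either line.

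Hist1h2be completed the H2B calls. It had 14.65 and 13.9 normalised reads in RAW264.7 at 120 min, 6.87 and 9.78 in the 264 line and 4.52 and 4.17 in the 3205 line. The log2 difference of -1.52 ± 0.43 in the 3205 line passed the test (limma, adjusted p = 0.0429) and was lost whichever of the 4 libraries was left out (adjusted p = 0.132 to 0.187). At 0 min the 3205 libraries, at 10.3 and 13.2, overlapped those of RAW264.7, at 13.1 and 16.2.

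**Figure D3:**
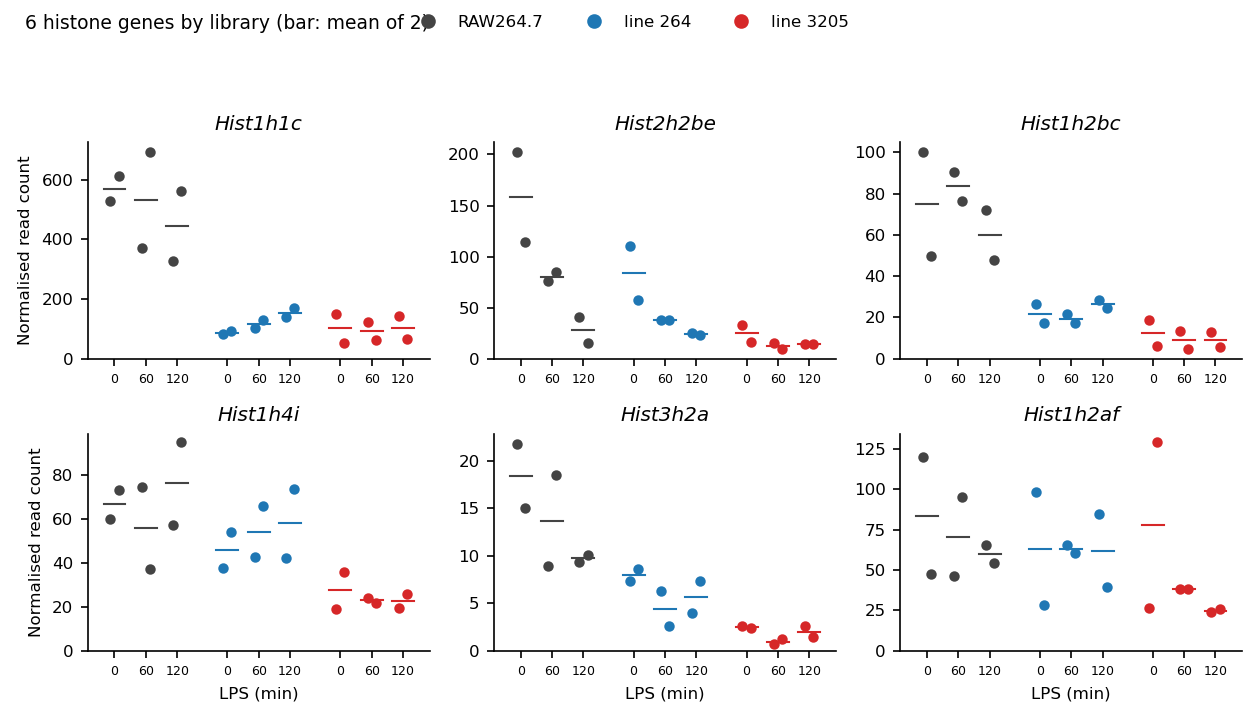
Normalised read counts of Hist1h1c, Hist2h2be, Hist1h2bc, Hist1h4i, Hist3h2a and Hist1h2af in each of the 18 libraries, by line and minutes of LPS, with 1 point per library and a bar at the mean of 2. Hist1h1c and Hist1h2bc lie lower in both altered lines at every time, and Hist2h2be falls in RAW264.7 from 202.5 and 115 at 0 min to 41.3 and 15.15 at 120 min.

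Among the H2A genes Hist3h2a was called lower in the 3205 line at each time, and Hist1h2af, the most abundant member, was not called. Hist3h2a lies apart from the large clusters (chr11:58954685-58955192). It had 21.8 and 15.1 normalised reads in RAW264.7 at 0 min, 7.28 and 8.55 in the 264 line and 2.57 and 2.39 in the 3205 line. After 60 min RAW264.7 had 8.91 and 18.5, line 264 had 6.26 and 2.59, and line 3205 had 0.661 and 1.25. After 120 min RAW264.7 had 9.32 and 10.1, line 264 had 3.93 and 7.34, and line 3205 had 2.58 and 1.39. All 6 libraries of either altered line lay below all 6 of RAW264.7, and the 3205 libraries were the lowest.

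The log2 difference of Hist3h2a in the 3205 line was -2.46 ± 0.54 at 0 min (limma, adjusted p = 0.0135), a call lost without RAW264.7 replicate 1 (adjusted p = 0.104) or 3205 replicate 1 (adjusted p = 0.0514). At 60 min it was -2.85 ± 0.54 (adjusted p = 0.0060), from 3 reads against 13, which gives 12.8-fold (3.53 to 70.2). That call was lost without RAW264.7 replicate 2 (adjusted p = 0.0503) or 3205 replicate 1 (adjusted p = 0.0535). At 120 min it was -1.87 ± 0.48 (adjusted p = 0.0286), lost whichever library was left out (adjusted p = 0.062 to 0.177). Line 264 differed by -1.10, -1.44 and -0.74 and none passed the test.

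Hist1h2af, the most abundant H2A gene, was not called in any comparison, and at 0 min its 2 libraries of a line lay further apart than the line means. It had 119.8 and 47.5 normalised reads at 0 min in RAW264.7, 98.3 and 28.2 in the 264 line and 26.5 and 129 in the 3205 line. Counts at 60 min were 46.0 and 95.05 for RAW264.7, while line 264 had 65.4 and 60.5, and line 3205 had 38.4 and 38.0. Those at 120 min were 65.3 and 54.3 for RAW264.7, while line 264 had 84.4 and 39.1, and line 3205 had 23.9 and 25.7. At both times after LPS the 3205 libraries lay below those of RAW264.7 and the 264 line. Hist1h2ae, the next H2A gene, had 17.4 and 12.7 in RAW264.7 at 0 min, 14.6 and 5.99 in the 264 line, and 4.28 and 8.37 in the 3205 line. The other H2A calls were in the 264 line at 60 min and rested on few reads. Hist1h2ai had 9 reads against 0 in RAW264.7, at least 1.22-fold higher (limma, adjusted p = 0.037), lost without RAW264.7 replicate 1 (adjusted p = 0.125), RAW264.7 replicate 2 (adjusted p = 0.124) or 264 replicate 1 (adjusted p = 0.246). The pseudogene Hist1h2al had 24 reads against 2, 4.87-fold with a counting interval of 1.21 to 42.5 (adjusted p = 0.0366), lost without RAW264.7 replicate 2 (adjusted p = 0.211), 264 replicate 1 (adjusted p = 0.119) or 264 replicate 2 (adjusted p = 0.173). The RAW264.7 group at 60 min includes the shallowest library, where 1 read is worth 2.64 normalised reads. With the replicate block, Hist1h2ak (adjusted p = 0.038) and the H2B gene Hist1h2bg (0.042) were also called higher in the 264 line at 60 min, where RAW264.7 replicate 2 had 0 reads of either gene.

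The H3 genes, which encode the replication-coupled H3 proteins that H3.3 stands beside, gave 1 gene with calls in the altered lines. Hist1h3g (chr13:23535418-23535909) had 10.9 and 12.7 normalised reads in RAW264.7 at 0 min, 7.28 and 10.3 in the 264 line and 3.42 and 1.20 in the 3205 line. After 60 min RAW264.7 had 8.91 and 7.92, line 264 had 7.65 and 2.59, and line 3205 had 1.98 and 0.623. The log2 difference in the 3205 line was -2.04 ± 0.60 at 0 min (limma, adjusted p = 0.0488) and -2.09 ± 0.60 at 60 min (adjusted p = 0.041). Both calls were lost whichever library was left out, with adjusted p of 0.052 to 0.198 at 0 min and 0.074 to 0.244 at 60 min. At 120 min the difference was -0.29 ± 0.50 (adjusted p = 0.79), with 3.996 and 3.79 in RAW264.7 against 2.58 and 3.47 in the 3205 line.

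The more abundant H3 genes were not called in the altered lines. Hist1h3e had 15.2 and 22.0 normalised reads in RAW264.7 at 0 min, 11.8 and 19.7 in the 264 line and 5.99 and 11.96 in the 3205 line. Hist1h3c had 10.9 and 3.47 in RAW264.7, 15.5 and 11.97 in the 264 line, and 4.28 and 3.59 in the 3205 line. At 120 min Hist1h3c had 5.33 and 2.53 in RAW264.7 and 12.8 and 12.2 in the 264 line, a log2 difference of 1.51 ± 0.56 that was called with the replicate block (adjusted p = 0.038) and not without it (adjusted p = 0.114). No replication-coupled H3 gene was called higher in a line by the test without the block.

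Hist1h4i, the leading H4 gene, was called lower in the 3205 line at 120 min. It had 59.9 and 72.9 normalised reads at 0 min in RAW264.7, 37.3 and 53.9 in the 264 line and 18.8 and 35.9 in the 3205 line. After 60 min RAW264.7 had 74.2 and 37.0, line 264 had 42.4 and 65.7, and line 3205 had 23.8 and 21.8. After 120 min RAW264.7 had 57.3 and 94.7, line 264 had 42.2 and 73.4, and line 3205 had 19.4 and 25.7. The 6 libraries of the 3205 line lay below the 6 of RAW264.7, and those of the 264 line overlapped RAW264.7 after LPS.

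The log2 difference of Hist1h4i in the 3205 line was -1.68 ± 0.46 at 120 min (limma, adjusted p = 0.0365), 3.41-fold lower (2.51 to 4.68), a call lost whichever library was left out (adjusted p = 0.071 to 0.207). At 0 min it was -1.31 ± 0.46 (adjusted p = 0.091, or 0.042 with the replicate block) and at 60 min -1.17 ± 0.46 (adjusted p = 0.12). Hist1h4f had 12 reads in RAW264.7 at 0 min and 0 in the 3205 line, at least 4.50-fold lower (adjusted p = 0.034), lost whichever library was left out (adjusted p = 0.085 to 0.195). Hist1h4h, also with 0 reads in the 3205 line at 0 min, was called lower only with the block (adjusted p = 0.028). Hist1h4d, the second most abundant H4 gene, had 13.1 and 10.4 in RAW264.7 at 0 min, 21.8 and 14.5 in the 264 line and 6.85 and 7.17 in the 3205 line. Hist4h4, the H4 gene on chromosome 6, had 7.62 and 8.11 in RAW264.7, 6.37 and 7.70 in the 264 line, and 5.14 and 4.78 in the 3205 line. Neither Hist1h4d nor Hist4h4 was called in an altered line.

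Separation over all times was read against the genome. Over the 49 members tested in both tables, 3 had all 6 libraries of the 264 line below all 6 of RAW264.7, namely Hist1h1c, Hist1h2bc and Hist3h2a, and 7.21% of 17077 genes did so. The 3205 line had 5, the same 3 genes with Hist1h4i and Hist1h3g, against 7% of all genes. In neither line did a member lie wholly above RAW264.7, whereas 9.23% (264) and 10.2% (3205) of all genes did. Most members had few reads, with a median mean of 3.55 against 396 for all genes tested, so these shares are not of genes alike in level.

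The classes differed in how much of their RNA depended on the leading gene. The summed H1 level was 370 to 713 in RAW264.7 (median 575), 134 to 192 in the 264 line and 75.3 to 170.4 in the 3205 line. At 0 min the H1 sum was 4.37-fold higher in RAW264.7 than in the 264 line and 5.02-fold higher than in the 3205 line, without overlap. With Hist1h1c left out, the H1 sum at 0 min came to 44.6 and 48.6 in RAW264.7, 51.9 and 56.4 in the 264 line and 19.7 and 21.5 in the 3205 line. The ratio of the 264 line to RAW264.7 thus turned from 0.229 to 1.16, and that of the 3205 line moved from 0.199 to 0.442. After LPS the ratios without Hist1h1c were above 1 in both altered lines, at 1.43 and 1.33 in the 264 line and 1.16 and 1.64 in the 3205 line, with overlap of the libraries. No test was made on class sums, since they are scores over the members.

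The H2B sum kept its direction without its leading gene, but after LPS little of the difference lay outside Hist2h2be and Hist1h2bc. It was 104 to 371 in RAW264.7 (median 193), 81.9 to 202.0 in the 264 line (median 126) and 47.4 to 89.0 in the 3205 line (median 62.7). RAW264.7 exceeded the 3205 line 3.67-fold at 0 min, 3.66-fold at 60 min and 2.02-fold at 120 min, with no overlap of the libraries at any time. Leaving out Hist2h2be, the ratios of the 3205 line to RAW264.7 were 0.405, 0.353 and 0.492, again without overlap. Hist1h2bc made up much of what remained in RAW264.7. At 60 min that rest was 123 and 103 in RAW264.7, with Hist1h2bc at 90.6 and 76.6. In the 3205 line it was 42.3 and 37.4, with Hist1h2bc at 13.2 and 4.99. At 120 min it was 108 and 88.4 in RAW264.7 (Hist1h2bc 71.9 and 48.0). The 3205 line then had 44.5 and 52.1 (Hist1h2bc 12.9 and 5.56). Beyond these genes the libraries overlapped after LPS.

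The sums of H2A, H3 and H4 lay nearer to RAW264.7 in the 264 line than in the 3205 line at 0 min. The H2A sum had medians of 116 in RAW264.7, 115 in the 264 line and 65.0 in the 3205 line, and at 0 min the libraries of the 3205 line overlapped RAW264.7. Without Hist1h2af, which had 26.5 and 129 there, the H2A ratio of the 3205 line to RAW264.7 at 0 min moved from 0.658 to 0.349, and the libraries no longer overlapped. The H4 sum had medians of 117, 94.7 and 47.1, and RAW264.7 exceeded the 3205 line 2.33-fold, 1.85-fold and 2.03-fold at 0, 60 and 120 min without overlap. Without Hist1h4i the ratios of the 3205 line to RAW264.7 were 0.449, 0.807 and 0.886, with overlap after LPS. The H3 sum had medians of 39.0, 52.8 and 26.2. At 0 min RAW264.7 exceeded the 3205 line 2.33-fold in H3 without overlap, and at 60 and 120 min the ratios were 1.24 and 0.862 with overlap. The H3 sum of the 264 line overlapped RAW264.7 at every time.

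**Figure D4:**
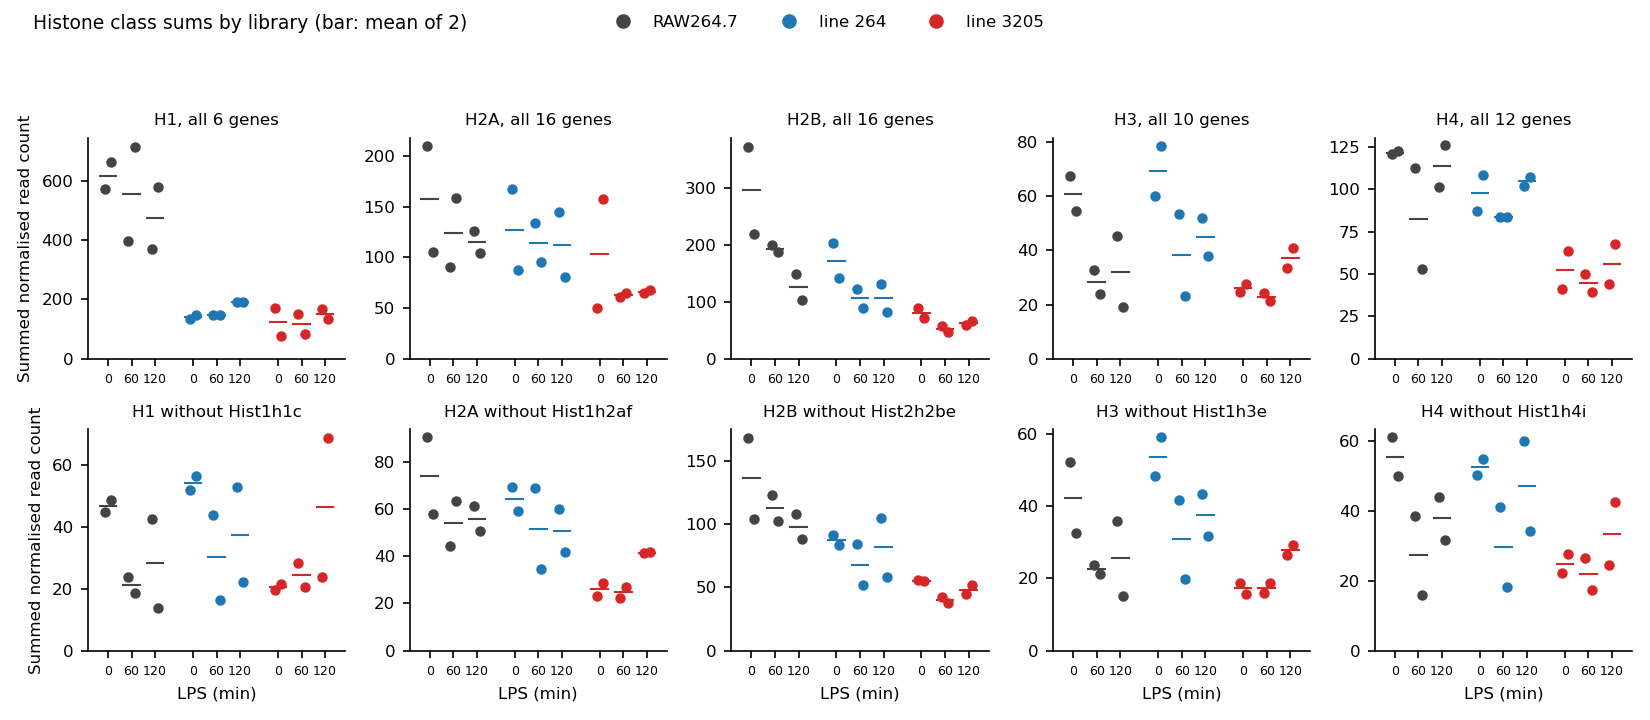
Summed normalised read counts of each histone class per library, by line and minutes of LPS, with 1 point per library and a bar at the mean of 2, for all members (top row) and without the most abundant member of the class (bottom row). The H1 sum lies at 370 to 713 in RAW264.7 and at 75.3 to 192 in the altered lines with Hist1h1c, and the lines overlap over the 3 times without it.

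The direction of the members as a set differed between the lines at 0 min. Of 49 members, 42 lay below RAW264.7 and 7 above it in the 3205 line, with a median log2 difference of -0.78, or -0.72 with genes at 0 reads in 1 group set at their floor. Line 264 had 23 below and 26 above, with a median of 0.09, and the median of all genes was near 0 in both. By class, the median log2 differences at 0 min in the 3205 line were -1.06 for H1, -0.72 for H2A, -0.46 for H2B, -0.57 for H3 and -0.66 for H4, and 0 of 11 H2A and 0 of 9 H3 genes lay above 0. The corresponding medians in the 264 line were 0.09, -0.14, 0.36, 0.27 and -0.10. At 60 and 120 min the medians over the members were 0.17 and 0.20 in the 264 line, or 0.03 and 0.16 with genes at 0 reads in 1 group set at their floor. In the 3205 line they were -0.05 at both times, or -0.05 and -0.04 at the floor. The lines share their RAW264.7 libraries, and the difference between the lines as sets was not tested. Rn7sk, Rpph1 and Rmrp, RNAs without a poly(A) tail, were also lower in the 3205 line than in RAW264.7 at 0 min, without overlap. Rn7sk had 125 and 101 normalised reads in RAW264.7, 92.8 and 176 in the 264 line and 41.1 and 34.7 in the 3205 line. Rpph1 had 30.5 and 13.9 in RAW264.7, 22.8 and 9.41 in the 264 line and 11.1 and 3.59 in the 3205 line. Rmrp had 19.6 and 5.79, then 15.5 and 5.13, then 4.28 and 0 in the same order. In these libraries 1 read is worth 0.855 to 1.20 normalised reads, so the separation of Rpph1 and Rmrp was narrow and rests on few reads. The part of RNA capture in the direction of the members was not tested.

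LPS changed few of these genes by the test, and the change with the most reads behind it was the fall of Hist2h2be in RAW264.7. After 120 min Hist2h2be was at 41.3 and 15.15 normalised reads against 202.5 and 115 at 0 min, a log2 difference of -2.55 ± 0.56 (limma, adjusted p = 0.0179) and 5.74-fold over pooled reads (4.15 to 8.10). The call was lost without RAW264.7 replicate 1 at 0 min (adjusted p = 0.149), replicate 2 at 0 min (adjusted p = 0.0578) or replicate 2 at 120 min (adjusted p = 0.127). After 60 min the difference was -0.92 ± 0.47 (adjusted p = 0.48). Line 264 gave -1.04 ± 0.47 at 60 min (adjusted p = 0.67) and -1.67 ± 0.56 at 120 min (adjusted p = 0.14, or 0.014 with the replicate block and 0.0298 by DESeq2). Line 3205, which began at 33.4 and 16.7, gave -0.86 ± 0.47 (adjusted p = 0.86) and -0.68 ± 0.56 (adjusted p = 0.66).

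The other LPS call was Hist1h2bj in RAW264.7 at 60 min, with 0 reads against 9 at 0 min, at least 1.77-fold lower (limma, adjusted p = 0.0195). It was lost whichever library was left out (adjusted p = 0.087 to 0.137), and it was not called by edgeR (adjusted p = 0.109). Thus 1 of 49 members was called lower in RAW264.7 at 60 min, where 1.32% of all genes were called lower and 1.66% higher. With the replicate block, Hist1h2bg (adjusted p = 0.041), Hist1h4d (0.033) and Hist1h2al (0.033) joined it, while 4.38% of all genes were called lower in that fit. At 120 min 1 of 51 members was called lower (5.52% of all genes lower, 5.08% higher).

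Neither altered line gave an LPS call among the members by limma. At 60 min 0 of 49 were called in the 264 line (0.821% of all genes higher, 0.37% lower), with 1 at an unadjusted p under 0.05 and 0 called by edgeR. At 120 min 0 of 51 were called there (2.88% higher, 2.55% lower), with 3 at an unadjusted p under 0.05, whereas DESeq2 (6.72% of its genes lower) and the replicate block (8.61% lower) each called 1 lower, Hist2h2be. The 3205 line had 0 called at 60 min (0.948% higher, 0.277% lower), with 0 at an unadjusted p under 0.05, and 0 at 120 min (2.89% higher, 2.14% lower), with 3. Neither edgeR without the block nor DESeq2 called a member after LPS in the 3205 line.

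Counts of direction after LPS were uneven in RAW264.7. Below 0 lay 39 of 49 members at 60 min, with a median log2 difference of -0.83, and 44 of 51 at 120 min, with a median of -0.46. In the 264 line 38 of 49 and 31 of 51 lay below 0, with medians of -0.45 and -0.30. The 3205 line had 29 of 49 below 0 at 60 min (median -0.15) and 18 of 51 at 120 min (median 0.30). With genes at 0 reads in 1 group set at their floor, the median in RAW264.7 at 60 min became -0.69, that in the 3205 line at 120 min became 0.16, and the other 4 kept their values to 2 decimals. Both times of a line are set against the same 0 min libraries. Rn7sk, which has no poly(A) tail, also fell at 60 min in every line without overlap. It went from 125 and 101 at 0 min to 41.6 and 37.0 at 60 min in RAW264.7. In the 264 line it went from 92.8 and 176 to 74.4 and 12.96, and in the 3205 line from 41.1 and 34.7 to 27.1 and 20.6. At 120 min Rn7sk had 82.6 and 25.3 in RAW264.7, 74.6 and 56.25 in the 264 line and 21.9 and 67.4 in the 3205 line. Only the 3205 line then overlapped with 0 min. Rpph1 and Rmrp overlapped with their 0 min values at both times in every line. The part of RNA capture in these counts of direction was not tested.

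**Figure D5:**
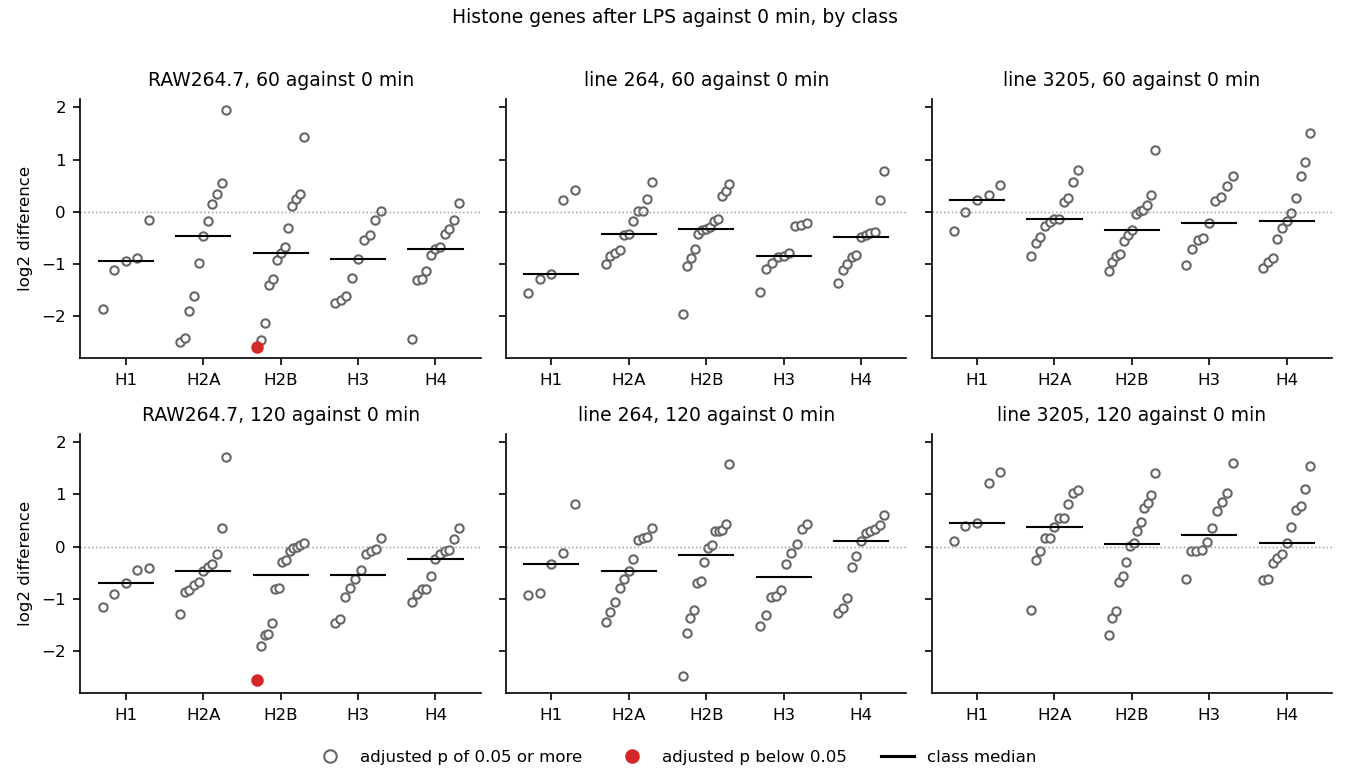
Log2 difference of each tested histone gene between LPS and 0 min in the same line (limma on log2(value + 1)), by class, in 6 panels of 1 line and 1 time, with red points at an adjusted p below 0.05 and a bar at the class median. The only red points are Hist1h2bj at 60 min and Hist2h2be at 120 min, both in RAW264.7 and both below 0.

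By class, the H2B sum lay below its 0 min level without overlap in every line and at both times. Its ratio to 0 min was 0.655 and 0.428 in RAW264.7, 0.619 at both times in the 264 line, and 0.657 and 0.780 in the 3205 line at 60 and 120 min. Without Hist2h2be the ratios were 0.829 and 0.719 in RAW264.7, 0.774 and 0.932 in the 264 line and 0.721 and 0.873 in the 3205 line, and RAW264.7 and the 264 line then overlapped with 0 min. The H3 sum stood at 0.463 and 0.527 of its 0 min level in RAW264.7 and at 0.554 and 0.648 in the 264 line, without overlap in either. Line 3205 had H3 ratios of 0.873 at 60 min and 1.42 at 120 min, also without overlap. The H4 sum was 0.680 and 0.934 of its 0 min level in RAW264.7 and 0.853 and 1.07 in the 264 line, without overlap at 60 min in either, and 0.857 and 1.07 in the 3205 line with overlap. The H2A sum was 0.789 and 0.733 in RAW264.7, 0.900 and 0.884 in the 264 line and 0.606 and 0.639 in the 3205 line, with overlap throughout. Without Hist1h2af the H2A ratios of the 3205 line were 0.951 and 1.60, the latter without overlap. The H1 sum was 0.899 and 0.768 in RAW264.7, 1.04 and 1.36 in the 264 line and 0.964 and 1.23 in the 3205 line. Without Hist1h1c the H1 ratios were 0.453 and 0.606 in RAW264.7, 0.556 and 0.693 in the 264 line, and 1.19 and 2.25 in the 3205 line, where the last ratio rests on libraries at 23.9 and 68.7. Hist1h1c itself was not called after LPS, with log2 differences of -0.16 and -0.40 in RAW264.7, 0.42 and 0.81 in the 264 line and -0.02 and 0.11 in the 3205 line.

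The LPS responses of the members were not called as different between lines. The test of the difference in response (the interaction of line and LPS) called 0 members for the 264 line at 60 min (0.0173% of all genes called) and at 120 min (0.0229%), and 0 for the 3205 line at 60 min (0.00578%) and at 120 min (0.00573%). At an unadjusted p under 0.05 limma had 4 and 0 members for the 264 line and 5 and 4 for the 3205 line, and the replicate block, edgeR and DESeq2 called 0 as well. For Hist2h2be at 120 min the response differed from that of RAW264.7 by 0.89 ± 0.80 on the log2 scale in the 264 line and by 1.87 ± 0.80 in the 3205 line (limma, adjusted p = 1 for both, and 0.20 for the 3205 line with the replicate block).

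Of 26 listed genes of histone RNA processing and S phase histone transcription, 23 were tested. Slbp, which encodes the protein that binds the histone stem-loop, had 1931 to 4206 normalised reads in RAW264.7, 2775 to 4741 in the 264 line and 2393 to 4880 in the 3205 line, and it was not called in any comparison. With the replicate block it was called higher at 120 min in the 264 line (log2 difference 0.64 ± 0.31, adjusted p = 0.24 without and 0.014 with the block) and in the 3205 line (0.68 ± 0.31, adjusted p = 0.20 and 0.010). Tut1, a terminal uridylyl transferase, was called higher in the 264 line at each time, by 0.55 ± 0.13, 0.64 ± 0.13 and 0.66 ± 0.15 on the log2 scale (limma, adjusted p = 0.0221, 0.00955 and 0.0197), in calls kept in 1, 2 and 2 of the 4 refits without a library. It was the 1 listed gene called there, while 7.61%, 8.46% and 7.33% of all genes were called higher. No listed gene was called in the 3205 line against RAW264.7. After 120 min of LPS in RAW264.7, Casp8ap2, which acts in histone gene transcription, and Zcchc11, another uridylyl transferase, were called lower (5.52% of all genes), and both calls were lost whichever library was left out (adjusted p = 0.0529 to 0.17).

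Some replication-independent histone genes, which are transcribed outside S phase too, were also called lower in the altered lines. Of 11 listed genes, 4 were called lower in the 264 line at 0 min (H1fx, H2afx, H3f3a and H3f3b), where 5.57% of all genes were. There 3 were called lower at 60 min (6.8% of all genes) and 3 at 120 min (6.13%), H1fx, H3f3a and H3f3b each time. Line 3205 had 6 lower at 0 min (the first 4 with Cenpa and H2afj), where 5.89% of all genes were. It had 4 at 60 min (H2afj, H2afx, H3f3a and H3f3b, 6.46% of all genes) and 5 at 120 min (these with H1fx, 5.99%). H3f3a and H3f3b are in each of these counts, but they are the check of the lines and not a finding. Their calls in both lines held whichever library was left out, those of H1fx, Cenpa and H2afj did not, and that of H2afx held in the 3205 line but in 2 of 4 refits in the 264 line at 0 min. H2afx, the variant phosphorylated at DNA breaks, had 3256 to 4386 normalised reads in RAW264.7, 2301 to 2805 in the 264 line and 687 to 901 in the 3205 line, with a log2 difference of -2.39 ± 0.16 in the 3205 line at 0 min (limma, adjusted p = 8.67e-06). H3f3b rose with LPS in RAW264.7, by 1.05 ± 0.13 at 60 min (adjusted p = 0.00185) and 1.22 ± 0.15 at 120 min (adjusted p = 0.000879), and was also called higher with LPS in both altered lines at both times. The calls in the 3205 line were lost whichever library was left out, with adjusted p of 0.0926 to 0.316 at 60 min and 0.0547 to 0.124 at 120 min.

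Of 34 listed genes of DNA replication, 1 was called lower at 0 min in each line (5.57% of all genes in the 264 line and 5.89% in the 3205 line), E2f2, a transcription factor of S phase genes. After LPS 1 and 2 were called higher in the 264 line (8.46% and 7.33% of all genes) and 3 and 2 in the 3205 line (8.95% and 7.94%) at 60 and 120 min, among them Ccne1, which encodes cyclin E1, and Mcm6, a subunit of the replicative helicase. In RAW264.7 after 120 min of LPS 4 were called lower (Ccne1, Ccne2, Dtl and E2f2), where 5.52% of all genes were. E2f2 dropped there from 2090 and 2054 normalised reads to 330 and 446, a log2 difference of -2.43 ± 0.18 (limma, adjusted p = 4.79e-05) that held whichever library was left out. It was the 1 gene of this list called lower at 120 min in the 264 line (-1.71 ± 0.18, limma, adjusted p = 0.00054, 2.55% of all genes). The same held for the 3205 line at 120 min (-1.16 ± 0.18, adjusted p = 0.0056, 2.14%) and RAW264.7 at 60 min (-0.62 ± 0.12, adjusted p = 0.019, 1.32%). Of the 10 replication chaperones, Asf1a was called higher in the 3205 line at 60 min and in both lines at 120 min, in calls lost whichever library was left out (adjusted p = 0.071 to 0.177), and no other was called. Of 16 genes of G2 and M phase, 2 were called higher in the 264 line at 0 min (Cenpf and Kif11, against 7.61% of all genes), 1 at 60 min (Plk1, 8.46%) and 1 at 120 min (Cenpf, 7.33%). In the 3205 line 2 were called lower at 0 min (Cenpf and Top2a, 5.89%), 2 at 60 min (Cenpf and Ccnb2, 6.46%) and 0 at 120 min. After LPS Cenpf was called lower in RAW264.7 at 120 min (5.52%), and no other gene of that list was called. Of the calls in the replication and the G2 and M phase lists, those of E2f2 in the 3205 line at 0 min and after 120 min of LPS in RAW264.7 and the 264 line held whichever library was left out, and each of the others was lost without at least 1 library. The part of a different share of cells in S phase in the histone values was not tested.

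The less abundant members varied between the libraries of 1 group. The sum of the 55 members outside the top 5 was 332 and 265.2 in RAW264.7 at 0 min, 172 and 148 at 60 min and 229 and 155 at 120 min. Line 264 had 297 and 316, then 270 and 127, then 301 and 170, and line 3205 had 127 and 154, then 131 and 118, then 155 and 240. The higher library of a group exceeded the lower 1.06-fold to 2.12-fold, with the greatest ratio in the 264 line at 60 min. The part of such differences between libraries in the calls above was not tested.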

How the data were processed

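RNA-seq of 18 libraries (3 lines, 3 times, 2 replicates) was used, and the other 56 of the series' 74 samples were not used here. Per the labels' protocols, RNA was extracted with RNeasy and made into TruSeq libraries, and the submitters' processing notes name Trim Galore 0.5.0, STAR 2.4.2, featureCounts of Subread 1.4.6, DESeq2 and R 3.4.0 with build mm10. The deposited signal values are read counts that the authors divided by 1 size factor per library, in 1 table of 0 and 60 min and another of 0 and 120 min. Whole reads were recovered for 100% of values (tolerance 0.1 read). The 0 min libraries stand in both tables and differed by at most 0.0469.

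The tests used limma 3.58.1 (R 4.3.3, intensity trend, 12 libraries of a table in 1 fit) on log2(value + 1) for the 17301 and 17450 genes with a mean of at least 1, with Benjamini-Hochberg adjustment over all of them. There were 16 comparisons (6 of LPS, 6 of lines, 4 of differences in response). Floors are 3 reads over a group, and counting intervals are exact at 95%. Alternatives were another pseudocount, no filter, a replicate block, TMM scaling, edgeR 4.0.16, DESeq2 1.42.0 and leaving out each library. Replicate numbers count as pairing the libraries, since same-numbered libraries deviated together in all 15 pairs of groups (r 0.156 to 0.564 in the 60 min table, 0.224 to 0.556 in the 120 min table). The main fit left this pairing out, because the labels do not say that replicate numbers share a batch. Calls that changed with the block are therefore given beside those of the main fit. The members and lists were chosen with earlier results of these data known. Named are the 3 most abundant members of a class, up to 3 calls in each direction and comparison by the smallest p, members called alike in both lines at all times, and H3f3a, H3f3b and Slbp. The limma and edgeR scripts were tested on simulated counts in 1 comparison. Changes were placed only in genes with a mean of at least 20, a level that 5 of the 60 members reach, so the low members were not covered.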

Additional observations from a re-analysis of the deposited data

How the results depend on the processing

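Of the 24 calls, 18 remained with no filter on low values, 23 and 22 with a pseudocount of 0.5 and 5, all 24 with TMM scaling, 18 with edgeR and 15 with DESeq2, where 2 and 3 more had no adjusted p. The replicate block kept all 24 and called 37. Beside the calls given with the results it changed no other call of a member. By comparison, the members called lower in RAW264.7 numbered 1 at 60 min (0 with pseudocount 5, edgeR, edgeR with the block or DESeq2, 4 with the block, 0 to 2 leaving out a library) and 1 at 120 min (2 with pseudocount 5, 0 to 1 leaving out a library). The LPS counts of 0 lower at 120 min became 1 in the 264 line with the block, with edgeR and the block or with DESeq2, and 1 in the 3205 line with edgeR and the block. Against RAW264.7 at 0 min, the 1 lower of the 264 line became 2 with the block, 3 with edgeR and the block and 2 with DESeq2, and the 6 of the 3205 line were 1 to 4 leaving out a library. At 60 min, the 3 higher of the 264 line became 5 with the block and 1 with edgeR, edgeR and the block or DESeq2 (1 to 4 leaving out a library). Its 1 lower became 2 with pseudocount 5, edgeR or DESeq2 and 3 with the block or edgeR and the block (0 to 1). The 1 higher of the 3205 line became 0 with DESeq2 (0 to 2) and its 5 lower were 2 to 4. At 120 min, the 264 line had 1 higher with the block (0 to 1 leaving out a library), and 1 lower with the block or DESeq2 and 2 with edgeR and the block. The 5 lower of the 3205 line became 2 with no filter and 3 with DESeq2 (0 to 2 leaving out a library). Class sums as ratios of a line to RAW264.7 moved where the most abundant member was left out. H1 turned to 1.16 (0 min), 1.43 (60 min) and 1.33 (120 min) in the 264 line and to 1.16 (60 min) and 1.64 (120 min) in the 3205 line, where it moved to 0.442 at 0 min. H4 in the 264 line moved to 0.946 at 0 min and turned to 1.25 at 120 min. In the 3205 line H2B moved to 0.353 at 60 min, and H2A to 0.742 and H4 to 0.886 at 120 min. These follow from the member left out, and the cause of the other changes was not tested. Of the single genes' values, 204 kept their call and 77 were no longer past the threshold, and none changed sign. Depth limits the low members, since 53 of 60 averaged under 10 normalised reads.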
